A study of Mus musculus with 9 samples.

Results

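CD4 single-positive thymocytes without surface TCRβ (CD4SP(TCRβ-)) of Brd1 conditional knockout (CKO) mice were compared directly with CD4 and CD8 double-positive (DP) thymocytes of the same genotype. The pair was chosen by the labels: the array of CD4SP(TCRβ-) cells against the array of DP cells, which are 2 of the 9 arrays of the series. Both populations came from C57BL/6 mice of 8 weeks that carried Brd1flox/flox and Tie2-Cre. The values of 4 other arrays, hybridised on the same slide, are given beside the pair. These were DP, CD4SP and CD8SP cells of control mice (Brd1+/+ with Tie2-Cre) and CD4SP cells of CKO mice, all C57BL/6 and 8 weeks old. Tie2-Cre is active in blood-forming and endothelial cells, so the deletion was not limited to thymocytes, and the control mice carried the same Cre.

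Each population was measured once, and the labels do not say whether the populations of a genotype came from the same mice. No difference can therefore be set against a replicate error and no p-value is given. A gene was called when it differed by more than 2-fold, which is more than 1 on the log2 scale. Levels are log2 signals relative to the 75th percentile of their own array, so 0 is the brightness of a probe at that percentile, and levels of different genes are not compared because probes differ in brightness. In RNA of a sorted population, fewer cells that make a transcript and less of it per cell cannot be told apart.

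Thymocytes pass through a double-negative stage, in which the TCRβ chain is rearranged and tested with the pre-TCR, and then a DP stage, in which the TCRα chain is rearranged by the Rag recombinase and both co-receptors are made. A DP cell whose TCR engages MHC is positively selected: it stops recombination, raises surface TCR, gives up 1 co-receptor and acquires the genes of egress from the thymus. A population with CD4 but neither CD8 nor surface TCRβ is therefore outside the usual order of these steps. Brd1 (also called BRPF2) is the scaffold of a histone acetyltransferase complex with Kat7, and it has been tied to expression of Cd8 in thymocytes.

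The depth of the arrays limited the comparison similarly on both sides. Of 55537 probes, 24744 (44.6%) were well above background on the TCRβ-negative array and 24097 (43.4%) on the DP CKO array, with 75th percentiles of 140 and 115 intensity units. Repeat spots of 1 probe had a median SD of 0.0698 and 0.0691 on the log2 scale. The scanner software gave a median error of 0.20 for the difference of a gene between both arrays, which covers measurement within an array and not variation between mice.

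The genome-wide difference of the pair was small. Among 11842 genes well above background on at least 1 of the 2 arrays, 251 were more than 2-fold higher in TCRβ-negative cells (2.12%) and 308 more than 2-fold lower (2.6%), 4.72% in all. The median difference was 0.01 and the quartiles were -0.21 and 0.24. Most of the called genes were dim: only 82 of the higher and 112 of the lower genes were well above background on both arrays. Among the 5921 genes whose brighter array was at or above the median level of 1.65, 10 were higher (0.169%) and 26 lower (0.439%), 0.608% in all. Over the 25715 compared probes, named or not, 3.41% were higher and 3.05% lower, 6.46% in all. Of the 39 called genes with several compared probes, 32 had all probes on the same side of 0 and 12 had all probes past 2-fold.

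The DP CKO array was the nearest to the TCRβ-negative array of the 5 other arrays on the slide. Over 1 set of 12868 genes, 755 (5.87%) differed by more than 2-fold between TCRβ-negative cells and DP CKO cells. The count was 1473 (11.4%) against DP control, 2983 (23.2%) against CD8SP control, 3095 (24.1%) against CD4SP CKO and 3744 (29.1%) against CD4SP control. DP CKO cells themselves differed from DP control cells at 1421 genes (11.0%), so the difference of the TCRβ-negative cells from DP CKO cells was smaller in number than the difference between the DP cells of both genotypes. Labelled CD4SP, the TCRβ-negative cells were thus nearer in these counts to both DP arrays than to either CD4SP array.

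**Figure D1:**
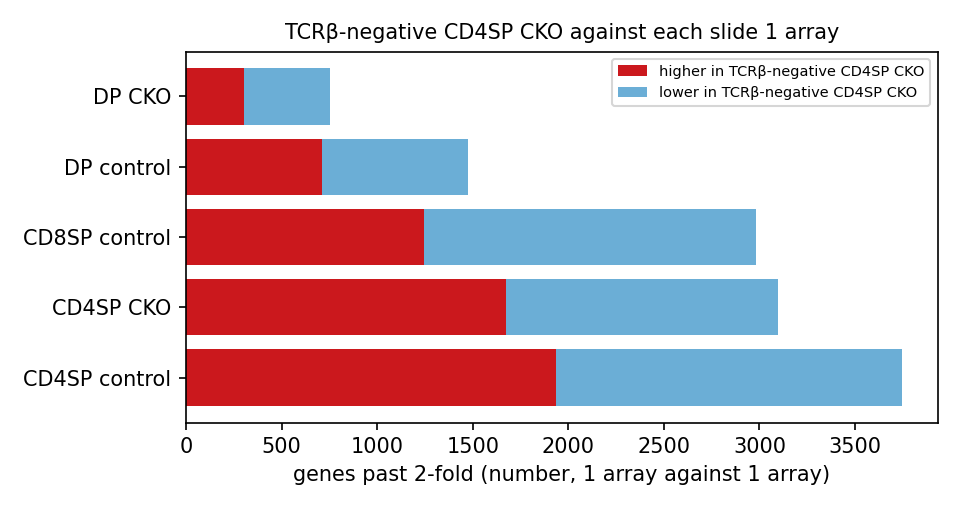
Number of genes past 2-fold (x axis) between the TCRβ-negative CD4SP CKO array and each of the 5 other arrays of the slide (y axis), split into genes higher and lower in TCRβ-negative cells, with 1 array on each side. The shortest bar is that of DP CKO (755 genes) and the longest that of CD4SP control (3744 genes).

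The labels were first set against the co-receptors. Cd4, the co-receptor for MHC class II, was at 6.19 in TCRβ-negative cells and 6.49 in DP CKO cells, against 6.22 in DP control, 6.54 in CD4SP control, 6.38 in CD4SP CKO and 3.50 in CD8SP control. The difference of the pair was -0.30, and a second, dimmer Cd4 probe gave -0.18. Cd4 was therefore as bright in TCRβ-negative cells as in the other populations sorted as CD4-positive, and brighter than in CD8SP cells.

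Cd8a, the α chain of CD8, had the largest difference of any gene well above background on both arrays. Its level was -0.32 in TCRβ-negative cells and 4.71 in DP CKO cells, a difference of -5.03 or 32.7-fold. A second Cd8a probe, at -0.83 and 4.68, gave -5.51. The levels in the other arrays were 5.46 in DP control, 4.60 in CD8SP control, -1.22 in CD4SP control and -2.11 in CD4SP CKO. Cd8a of TCRβ-negative cells lay far below both DP arrays and above both CD4SP arrays.

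Cd8b1, the β chain of CD8, differed less. It was at 3.24 in TCRβ-negative cells and 6.33 in DP CKO cells, a difference of -3.09 or 8.5-fold. DP control was at 6.65, CD8SP control at 5.64, CD4SP control at 1.67 and CD4SP CKO at 0.54. Both Cd8 genes thus took intermediate positions, nearer to the CD4SP arrays for Cd8a and nearly midway between DP CKO and CD4SP CKO for Cd8b1. The sort removed CD8-positive cells, so lower Cd8 transcripts are also what the gate selects for.

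Another gene of the same neighbourhood was lower as well. Rmnd5a, a subunit of the CTLH E3 ubiquitin ligase complex and the protein-coding gene next to Cd8a on the side away from Cd8b1, was at 1.68 in TCRβ-negative cells and 3.53 in DP CKO cells. The difference was -1.84 or 3.59-fold, and its second probe gave -1.32. Levels of Rmnd5a were 3.90 in DP control, 2.07 in CD8SP control, 0.73 in CD4SP control and 0.00 in CD4SP CKO, the same order as for Cd8b1. Whether the CD8 gate bears on this gene was not tested.

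The genes beyond these 3 on chromosome 6 were not past 2-fold lower by the probe that stands for them. On the Cd8b1 side, Krcc1 differed by -0.02, Smyd1, a muscle histone methyltransferase, by -0.05, and the dim Foxi3 by -0.45. Thnsl2 and Fabp1 on that side were not well above background on either array. On the Rmnd5a side, Rnf103 differed by 0.09, Chmp3 by -0.12, Kdm3a by 0.10, Mrpl35 by 0.04, Immt by 0.09 and Ptcd3 by 0.24. The second Rnf103 probe gave -0.89. Reep1 was past 2-fold higher, at -1.46 against -2.57, a difference of 1.11 between dim signals.

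**Figure D2:**
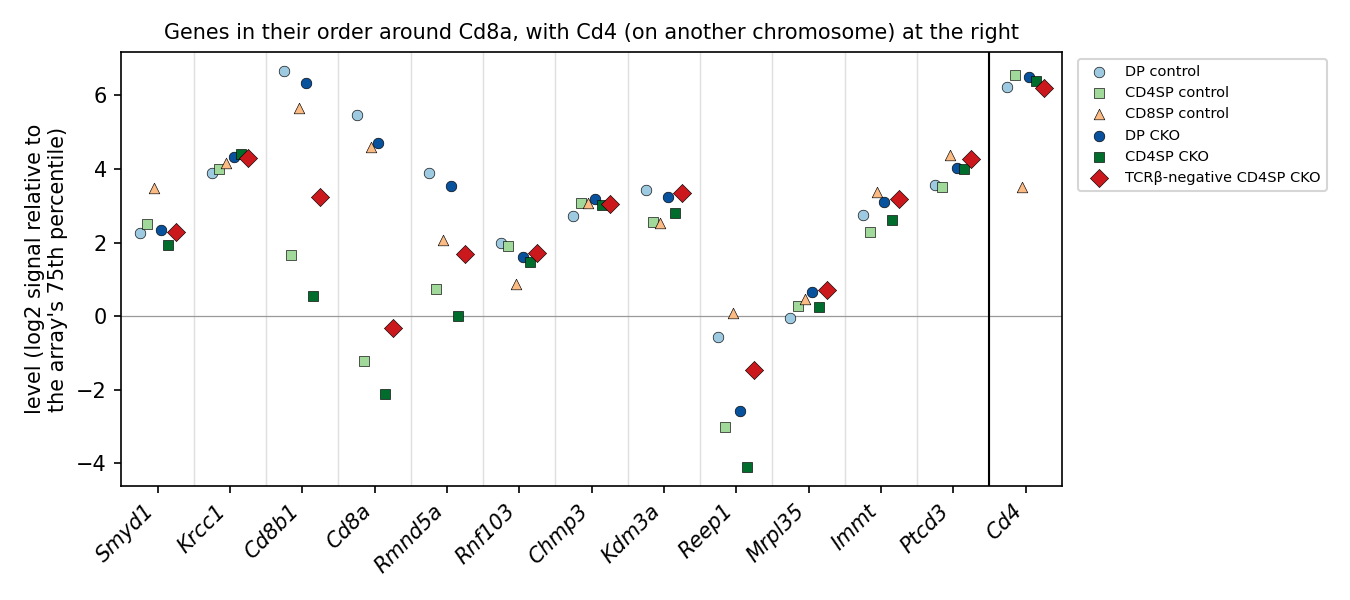
Level of the genes with a probe around Cd8a, in the order of the RefSeq annotation, and of Cd4 at the right (x axis), on the 6 arrays of the slide (y axis, log2 signal relative to the 75th percentile of the array). TCRβ-negative cells (red diamonds) lie below DP CKO (dark blue circles) at Cd8b1, Cd8a and Rmnd5a and beside it at Cd4 and most neighbours.

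The promoters of Cd8a and Rmnd5a are shown because both genes were lower together and are adjacent. Each run is the 250 bases before the annotated start, on the gene's own strand, from RefSeq (build GRCm38.p6). Capitals mark the E-box CANNTG, the motif bound by E proteins and other basic helix-loop-helix factors, which reads the same way on both strands.
Cd8a, chr6:71373177-71373426, plus strand: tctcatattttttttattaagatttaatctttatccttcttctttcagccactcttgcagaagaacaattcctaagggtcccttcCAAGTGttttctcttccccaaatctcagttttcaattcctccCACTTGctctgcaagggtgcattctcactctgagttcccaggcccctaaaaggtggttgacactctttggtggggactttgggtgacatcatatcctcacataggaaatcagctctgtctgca
Rmnd5a, chr6:71440638-71440887, minus strand: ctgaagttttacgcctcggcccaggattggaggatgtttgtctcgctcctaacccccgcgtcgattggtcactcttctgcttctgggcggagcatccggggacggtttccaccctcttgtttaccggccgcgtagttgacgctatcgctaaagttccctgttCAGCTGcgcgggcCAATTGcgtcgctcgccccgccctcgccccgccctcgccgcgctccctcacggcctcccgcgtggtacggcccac
The Cd8a window held E-boxes starting 165 and 123 bases before the gene's start and the Rmnd5a window at 88 and 75 bases before it. Of 32851 RefSeq promoter windows of this length, 66.2% held an E-box, so its presence is common. Neither window held the Runx motif TGTGGT or the Ets motif GGAAGT on either strand, which occurred in 14.0% and 19.7% of all windows. These are matches of letters, and no binding was measured.

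Brd1 and its partners did not differ past 2-fold, in 0 of 9 genes. Over all genes 4.72% did, so this count is near the background. Brd1 was at -0.58 in TCRβ-negative cells and -0.33 in DP CKO cells. The position of its probe relative to the floxed exons is not given in the sources used here, so this level does not check the deletion. The related scaffolds Brpf1 and Brpf3 differed by -0.15 and 0.03, and the acetyltransferases Kat7, Kat6a and Kat6b by 0.02, 0.27 and 0.10. The subunits Ing4, Ing5 and Meaf6 differed by -0.14, 0.59 and 0.38.

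The recombination machinery of TCRβ-negative cells was at the DP level. Rag1, the catalytic recombinase subunit, was at 8.07 in TCRβ-negative cells, 8.09 in DP CKO and 8.07 in DP control, against 3.95 in CD8SP control, 2.88 in CD4SP CKO and 0.62 in CD4SP control. Rag2, its partner, was at 4.69, 4.71 and 4.75 in the same first 3 arrays and at -0.04 in CD4SP CKO and -1.36 in CD4SP control. Dntt (terminal transferase, which adds bases at the joints) was at 10.48 and 10.46 in the pair and at 6.71 in CD4SP CKO. All 3 genes therefore stood with both DP arrays and well above both CD4SP arrays. Of the 14 compared genes of V(D)J recombination none differed past 2-fold, with a median of 0.10. Over all genes 4.72% did, so this count is near the background. The largest differences were 0.63 for Lig4 (the ligase of end joining), 0.58 for Hmgb2 and 0.54 for Prkdc (the DNA-dependent protein kinase).

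Other transcripts of the DP stage were at the same level as well. Of 18 compared genes of the DP stage list, none differed past 2-fold (background 4.72%), and their median was -0.02. For these 18 genes the median of control CD4SP minus DP was -3.41. Ptcra, the pre-TCRα chain, was at 4.25 in TCRβ-negative cells and 3.94 in DP CKO cells, against -0.74 in CD4SP CKO. Endou was at 7.51 and 7.57, Aqp11 at 7.35 and 7.34 and Arpp21 at 3.23 and 3.15. The only difference near the threshold was that of St6gal1, a sialyltransferase, at 0.53 in TCRβ-negative cells (-0.97 within the pair), a gene that was higher in both CD4SP arrays (3.88 in control and 3.89 in CKO).

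Of 21 genes of the double-negative stage and of Notch signalling, 13 could be compared and 8 were not well above background on either array. None of the 13 differed past 2-fold, which is near the share of 4.72% over all genes, and their median was 0.12. The largest was Lmo2, well above background in DP CKO only, with a difference of -0.99. Notch1 differed by -0.28 (0.49 by another probe), Notch3 by 0.12, and Il2ra (CD25) by 0.28, from 0.09 to 0.37. Of 13 compared genes of β selection and the immature single-positive stage, none differed past 2-fold (background 4.72%), with a median of -0.07. Cd24a, high on immature thymocytes, was at 5.91 and 5.99 in the pair, and Cd2 at 5.60 and 6.50 (-0.90). Another Cd2 probe gave -1.09.

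The factors that set lineage and co-receptor choice were likewise near their DP level. Of 24 compared transcription factors and co-receptor regulators, 1 was past 2-fold, near the share of 4.72% over all genes, and the median was 0.01. That gene was Id2, the inhibitor of E proteins, at 0.55 in TCRβ-negative cells and 1.68 in DP CKO cells (-1.13), against 1.45 in DP control and 4.40 in CD4SP CKO. Runx3, the factor that silences Cd4 in CD8 cells, differed by 0.28 and Runx1 by -0.54, and a second probe lay on the other side of 0 for each (-0.29 and 0.50). Zbtb7b (ThPOK, the CD4 lineage factor, which also represses Cd8) was at 6.12 against 6.54 (-0.42), with 7.79 in CD4SP control and 7.06 in CD4SP CKO. Gata3 differed by 0.03, Bcl11b by 0.08, Satb1 by -0.15 and Smarca4, a chromatin remodeller, by 0.06.

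The CD3 chains were transcribed in the TCRβ-negative cells. Cd3e was at 8.14 in TCRβ-negative and 8.42 in DP CKO cells, Cd3d at 8.88 and 9.26, Cd3g at 7.77 and 8.07, and Cd247 (the ζ chain) at 3.22 and 3.58. The kinases Lck and Zap70 were at 10.05 and 7.25 in TCRβ-negative cells and at 10.36 and 7.62 in DP CKO cells. Of 23 compared genes of the complex and its proximal signalling, 0 were past 2-fold (background 4.72%). Of these 23, 20 were below 0, with a median of -0.27, while 49.1% of all 11842 genes were below 0. The largest was Cd5, a negative regulator whose level follows TCR signal strength, at 6.15 against 6.96 (-0.80). Transcripts of the CD3 chains thus differed from their DP CKO level by -0.38 to -0.27. The transcripts of the TCRβ and TCRα chains were not analysed here.

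Genes induced by TCR signals and positive selection were lower. All 18 compared members were below 0, 15 of them by more than 1.5-fold (background 6.73%) and 5 by more than 2-fold (background 2.6%), with a median of -0.81. In control cells the same genes had a median of 2.01 for CD4SP minus DP. Cd69, the early activation receptor that holds thymocytes in the thymus, was at 1.80 in TCRβ-negative cells, 2.99 in DP CKO and 2.33 in DP control. Nr4a1 (Nur77, an immediate target of TCR signals) was at 4.40, 5.59 and 4.86 in the same arrays. Itm2a, induced in positive selection, was at 3.53, 4.68 and 5.38. In these 3 genes TCRβ-negative cells lay below both DP arrays. The sort left out cells with surface TCRβ, which rises in positive selection. Lower transcripts of selected cells are therefore also what this gate selects for, and its part was not tested.

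The other 2 members past 2-fold were Cd53, a tetraspanin, and Dusp6, a phosphatase of ERK. Cd53 was at -0.76 in TCRβ-negative cells, 0.93 in DP CKO and -0.09 in DP control, a difference of -1.69 within the pair. Dusp6 was at 3.02, 4.11 and 3.58, a difference of -1.08. Smaller differences were -0.68 for Egr2, -0.67 for Egr1, -0.83 for Nfkbid and -0.72 for Bcl2. Against the DP control array, 16 of the 18 genes were lower in TCRβ-negative cells and 1 past 2-fold, with a median of -0.54. DP CKO minus DP control had a median of 0.29 over the same genes; both of these comparisons share an array with the pair.

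Immediate early genes can also be induced while cells are sorted. Of 18 compared members of the immediate early and heat shock list, 14 were below 0 and 1 was past 2-fold lower (background 2.6%), Ier2 at -0.01 against 1.05 (-1.06), and the median was -0.58. Junb differed by -0.99, Dusp1 by -0.94 and Fos by -0.63, while the chaperone Hsp90aa1 was at 6.76 against 6.07 (0.69). The part of sample handling in the TCR signal genes was not tested.

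Genes of mature thymocytes and egress were lower in part. Of 27 compared members, 7 were past 2-fold lower and 1 higher (background 2.6% and 2.12%), and the median was -0.48. Gimap4 and Gimap3, GTPases of T cell survival, had the largest differences. Gimap4 was at -0.20 in TCRβ-negative cells, 2.40 in DP CKO, 1.47 in DP control and 7.19 in CD4SP CKO, a difference of -2.60 within the pair. Its 3 probes ranged from -3.25 to -0.85. Gimap3 was at 0.29, 2.39, 0.73 and 7.05 in the same arrays, a difference of -2.10.

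The receptors and the regulator of egress followed the same order of arrays. Ccr7, the receptor that guides selected cells to the medulla, was at 1.11 in TCRβ-negative cells, 3.10 in DP CKO, 2.55 in DP control and 7.86 in CD4SP CKO (-1.99 within the pair). Klf2, the factor that induces S1pr1, was at 1.60, 3.18, 2.02 and 6.77 (-1.58). S1pr1, the receptor for exit from the thymus, was at -2.63, -1.47, -2.62 and 4.22 (-1.15). TCRβ-negative cells were thus below DP CKO in each of these 3 genes, whereas S1pr1 was at the DP control level.

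The remaining members past 2-fold were S100a6 (-1.29) and S100a4 (-1.17), both calcium-binding proteins, on the lower side. Ms4a6b was the member on the higher side, at -0.01 against -2.11 (2.10), with -3.35 in DP control and 1.38 in CD4SP CKO. Not all genes of maturation differed. Il7r, the IL-7 receptor, was at 0.22 against 0.20, and Foxo1 (a factor upstream of Klf2) at 1.99 against 2.01. Against DP control, TCRβ-negative cells had 4 of the 27 genes past 2-fold higher and 4 lower, with a median of -0.30. DP CKO minus DP control had 8 higher and 1 lower, with a median of 0.52. The part of the TCRβ gate in the genes of maturation and egress was likewise not tested.

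**Figure D3:**
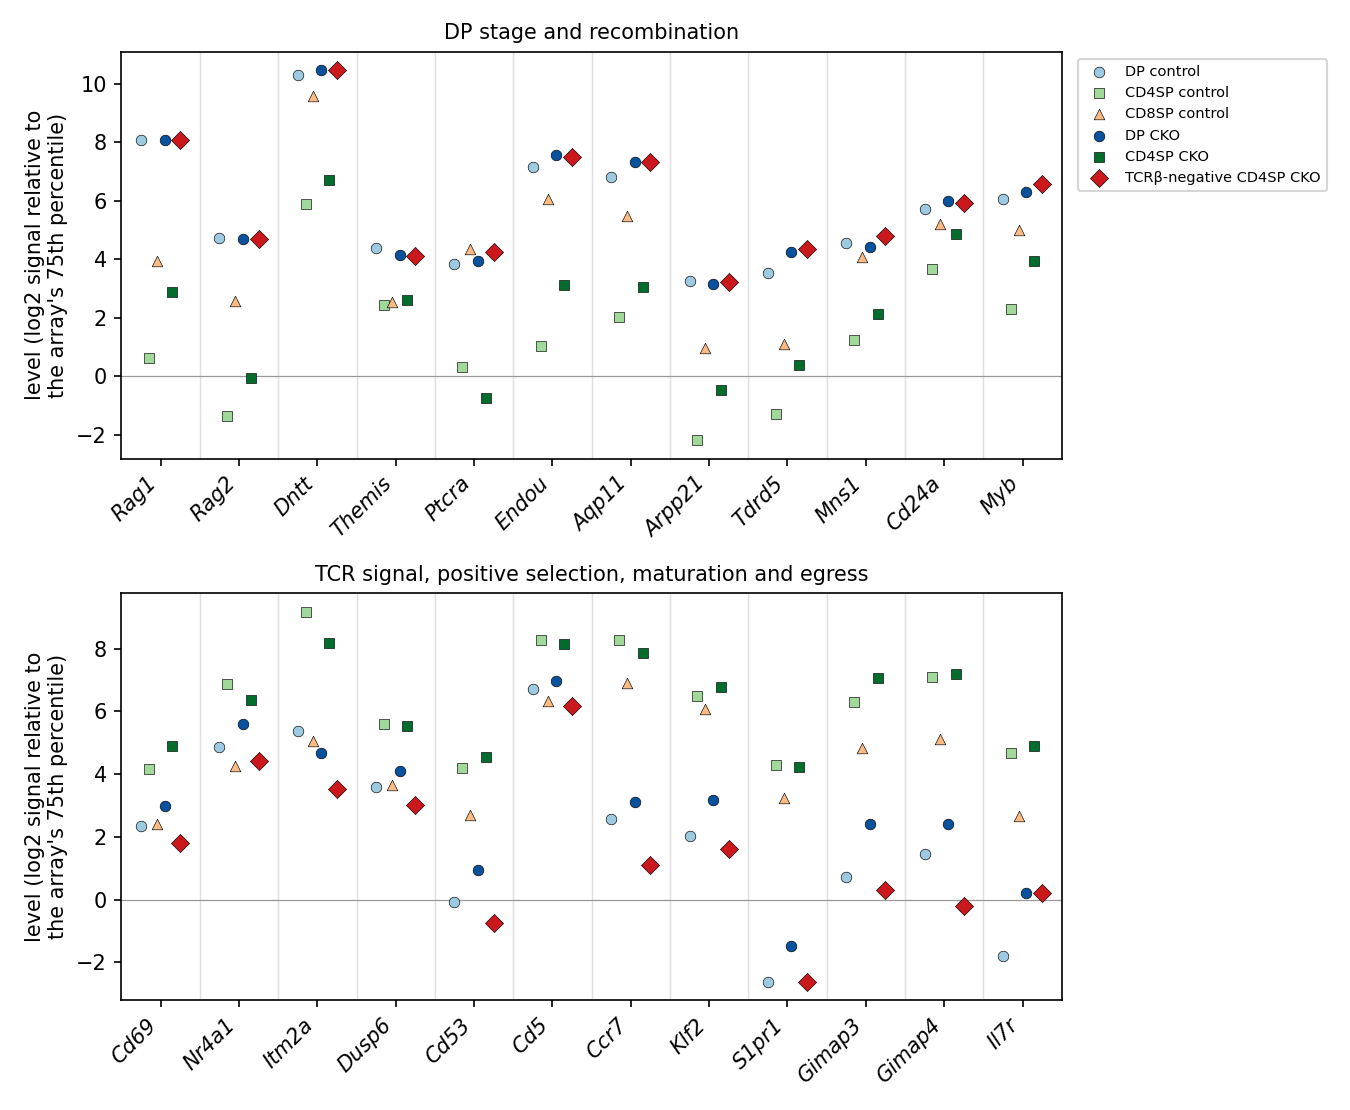
Level of 12 genes of the DP stage and recombination (upper panel) and of 12 genes of TCR signal, positive selection and egress (lower panel) on the 6 arrays of the slide (y axis, log2 signal relative to the 75th percentile of the array). TCRβ-negative cells (red diamonds) sit beside DP CKO in the upper panel and below it for 11 genes of the lower panel, all except Il7r.

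Of 14 compared genes of the CD8 lineage and cytotoxic list, 5 were past 2-fold lower and 0 higher (background 2.6% and 2.12%), with a median of -0.75, and 11 were below 0. Ccl5, a chemokine of cytotoxic cells, was at -0.53 in TCRβ-negative cells, 2.48 in DP CKO, 0.41 in DP control and 5.37 in CD8SP control (-3.01 within the pair). Ifng was not well above background in TCRβ-negative cells and was at -1.88 in DP CKO, at least 4.25-fold lower. Fasl was not well above background in TCRβ-negative cells either (at least 1.97-fold lower). Il2rb differed by -1.17 and Ctsw by -1.08. Gzma was on the other side, at 8.24 against 7.71 (0.53), with 5.47 in DP control. Over the same 14 genes, DP CKO minus DP control had a median of 1.02 and TCRβ-negative minus DP control a median of 0.10.

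Of 10 compared genes of the CD4 lineage, 1 was past 2-fold lower and 1 higher (background 2.6% and 2.12%), with a median of -0.35. The lower one was Izumo1r (folate receptor 4), at -0.43 against 0.71 (-1.15). The higher one was Tnfsf8 (CD30 ligand), which was well above background in TCRβ-negative cells only, at least 1.55-fold higher. Of 11 compared genes of regulatory T cells, 3 were past 2-fold lower (background 2.6%): Foxp3, the lineage factor, at -2.69 against -1.63 (-1.06), Izumo1r and Socs2 (at least 2.96-fold lower). The median of that list was -0.41. Socs2 is measured by several probes and changed side when the median over them was used.

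The called chemokine and cytokine receptors were all lower, against a background of 2.6% of all genes. Of 10 compared chemokine and egress receptors, 3 were past 2-fold lower, Ccr7, S1pr1 and Gpr183 (an oxysterol receptor, not well above background in TCRβ-negative cells), and the median was -0.54. Ccr9, the receptor of DP cells for Ccl25, was at 6.95 and 7.32, and Cxcr4 at 3.54 and 3.57. Of 19 compared cytokine receptors and Socs genes, 3 were past 2-fold lower, Cish (at least 4.28-fold lower), Socs2 and Il2rb, with a median of -0.29. Cish and Socs2 are feedback inhibitors induced by STAT5.

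Proliferation genes were above 0 in all 30 compared members, compared with 50.9% of all 11842 genes. Their median was 0.55 and they ranged from 0.13 (Tyms) to 1.00 (Mki67). Only 1 was past 2-fold higher (background 2.12%) and 13 were past 1.5-fold higher (background 7.52%). Mki67, the proliferation antigen, was at 5.95 in TCRβ-negative cells, 4.95 in DP CKO and 5.18 in DP control (1.00 within the pair), and its other probe gave 1.04. Bub1, a mitotic checkpoint kinase, was at 2.44, 1.48 and 1.57 (0.95). Cdc6, which licenses origins, was at 1.41, 0.51 and 1.20 (0.90). In each of the 3 genes TCRβ-negative cells were above both DP arrays.

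The remaining proliferation genes covered both S phase and mitosis. Ccnb1 and Ccna2, the mitotic and S phase cyclins, differed by 0.86 and 0.82, Ccne1 by 0.84 (0.14 by another probe) and Top2a, the topoisomerase of replicated chromosomes, by 0.84. The helicase subunits Mcm2 to Mcm7 ranged from 0.31 (Mcm7) to 0.63 (Mcm4). Against DP control, all 30 members were again above 0 in TCRβ-negative cells, with 0 past 2-fold and a median of 0.38. DP CKO minus DP control had 8 members above 0 and 22 below, with a median of -0.12. The first of these shares the TCRβ-negative array with the pair and the second shares the DP CKO array.

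Among genes at or above the median brightness, the 15 with the largest positive difference were led by Ncapg2 (1.38, a condensin II subunit), Aspm (1.33, a spindle pole protein) and Cenpe (1.20, a kinetochore motor). Pus7, Pou2f1, Anln, Exo1, Ybx3, Pola1 and Mki67 followed, between 1.13 and 1.00, and Gpr25, Smc2, Idi1, BC055324 and Bub1 were below 2-fold, between 0.98 and 0.95. Pou2f1 had a second probe at 0.39. Anln acts in cytokinesis, Exo1 is a mismatch repair exonuclease, Pola1 the primase-bound DNA polymerase and Smc2 a condensin subunit.

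Among the 15 largest negative differences at this brightness, Cd8a, Cd8b1, Ccl5, Gimap4, Gimap3, Ccr7, Rmnd5a and Klf2 have been described. The others were Ifi27l2a (-1.49), Hba-a1 (-1.46), Tmsb10 (-1.46), Hba-a2 (-1.40), Rn28s1 (-1.30), Ppp1r15a (-1.25) and H2-Ab1 (-1.22). Tmsb10 is an actin-sequestering peptide, Ppp1r15a a phosphatase subunit of the stress response and H2-Ab1 a chain of MHC class II. Rn28s1 is ribosomal RNA.

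**Figure D4:**
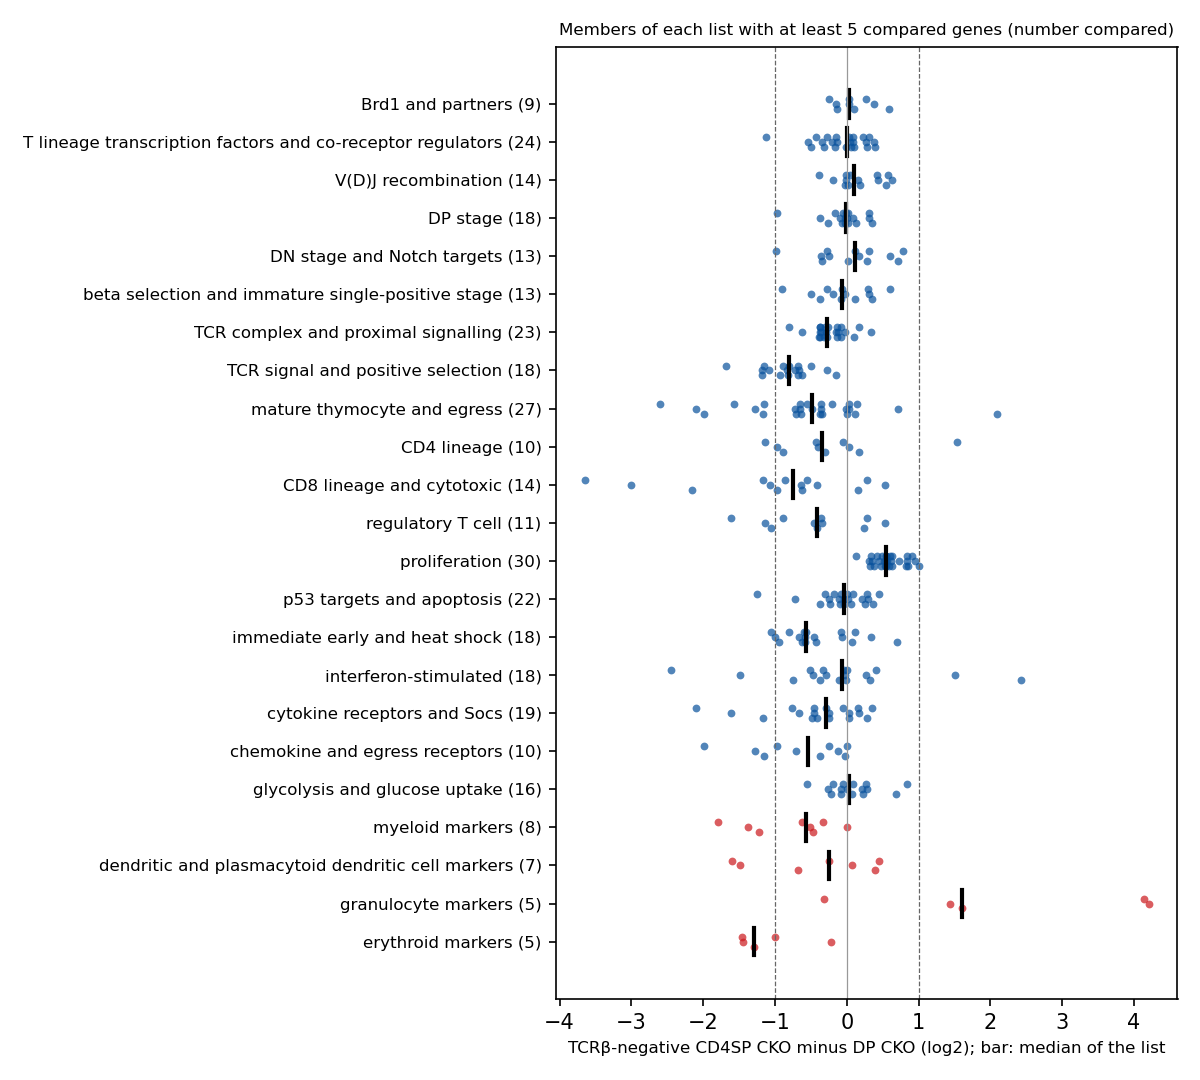
Difference of every compared gene (points) of each list with at least 5 compared genes, TCRβ-negative CD4SP CKO minus DP CKO (x axis, log2), with the median of the list as a black bar and dashed lines at 2-fold. Marker lists of other cell types are red. The proliferation points all lie above 0, the TCR signal points all below 0, and the DP stage points around 0.

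Apoptosis, glycolysis and interferon genes showed no common side. Of 22 compared p53 targets and apoptosis genes, 1 was past 2-fold, near the share of 4.72% over all genes. It was Cdkn1a, not well above background in TCRβ-negative cells (at least 2.23-fold lower). Trp53 differed by -0.23, Bax by 0.01, Pmaip1 by 0.36 and Mdm2 by 0.44. None of 16 compared genes of glycolysis was past 2-fold (background 4.72%), with a median of 0.03. Of 18 compared interferon-stimulated genes, 2 were higher and 2 lower (background 2.12% and 2.6%), with a median of -0.07. Ifi27l2a and Oasl2 were on the lower side and Rsad2 and Ifit1 on the higher side. Oasl2 was not well above background in TCRβ-negative cells (at least 1.83-fold lower), and Rsad2 and Ifit1 not in DP CKO (at least 2.85-fold and 1.45-fold higher).

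The step from DP to CD4SP in control mice gave a separate set of genes to look at, because the control pair shares no array with the CKO pair. In control mice, 14% of 12151 genes were more than 2-fold higher in CD4SP than in DP cells and 11.8% lower, 25.8% in all. In CKO mice 10.1% of 12069 genes were higher in CD4SP and 11.5% lower, 21.6% in all. At least 4-fold higher in control CD4SP were 782 genes, of which 503 could be compared in the CKO pair. Of these, 18 were past 2-fold higher in TCRβ-negative cells (3.58%) and 99 past 2-fold lower (19.7%), with a median of -0.40. The background over all compared genes was 2.12% and 2.6%. A gene was compared when either array of the CKO pair was well above background, so a dim gene could enter through its higher array alone. The background was not matched for this, so the excess over it cannot be sized from these shares. With detection required on both arrays of each pair, 3 genes of this set were higher and 53 lower. In CD4SP CKO cells, which share the DP CKO array, 408 of the 503 were higher and 12 lower, with a median of 1.95. Among the 120 brighter genes of this set, 0 were higher and 15 lower in TCRβ-negative cells, with a median of -0.34.

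The genes that go down in this step were mostly near the DP CKO level, and as a set slightly above it. At least 4-fold lower in control CD4SP were 528 genes, of which 488 could be compared. Of these, 22 were past 2-fold higher in TCRβ-negative cells (4.51%) and 8 past 2-fold lower (1.64%), against a background of 2.12% and 2.6%. The median was 0.25 and the quartiles were -0.09 and 0.57. With detection required on both arrays of each pair, 9 were higher and 3 lower. In CD4SP CKO cells 438 of the 488 were lower, with a median of -2.32. The 8 lower genes, named after their values were seen, were Cd8a, Cd8b1, Rmnd5a, Ankrd6, Atl1, DXBay18, Wdr27 and Foxo4. Of these 8, Cd8a, Cd8b1 and Rmnd5a were well above background in TCRβ-negative cells and the other 5 were not. Among the 229 brighter genes of this set, 6 were past 2-fold higher: Mki67, Pola1, Anln, Cenpe, Aspm and Ncapg2. These 6 were already given above among the largest positive differences, so they are not a separate result. Cd8a, Cd8b1 and Rmnd5a were the only brighter ones past 2-fold lower. Among bright genes with a symbol that go down in this step, only the Cd8 genes and their neighbour were thus past 2-fold towards the CD4SP level. Lower Cd8 transcripts are also what the sort gate selects for. Probes without a gene name were not in this set. Among bright ones lower in control CD4SP than in DP, those at chr7:111526943-111545093 (build mm9) differed by -1.16 and -1.08. Those at chr1:139822286-139822985 (build mm9) differed by 1.16 to 1.38.

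Among the 10 genes with the largest control decrease, Cd8a was the only one past 2-fold in the CKO pair. Rag1 and Rag2 both differed by -0.02 in the CKO pair, Endou by -0.07, Lingo4 by 0.28, Ccdc153 by -0.31, Tctex1d1 by -0.36, A930003A15Rik by -0.42, Insl5 by -0.49 and Smoc1 by -0.77, against -5.03 for Cd8a. Of the 10 with the largest control increase, 3 could be compared: Apol9b (-0.68), Samhd1 (-2.80) and S1pr1 (-1.15). Samhd1, which hydrolyses nucleotides, was at -2.75 in TCRβ-negative cells, 0.05 in DP CKO, -1.03 in DP control and 5.38 in CD4SP CKO. Penk, Tff1, Slfn1, Nt5e, Pyroxd2, Gzmb and Adh1 were not well above background on either array of the CKO pair. Across 11438 genes measured in both pairs, Pearson's r between the control and the CKO difference was -0.28 and Spearman's rho -0.25. These are values across genes of 2 pairs of arrays, and genes are not independent replicates.

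**Figure D5:**
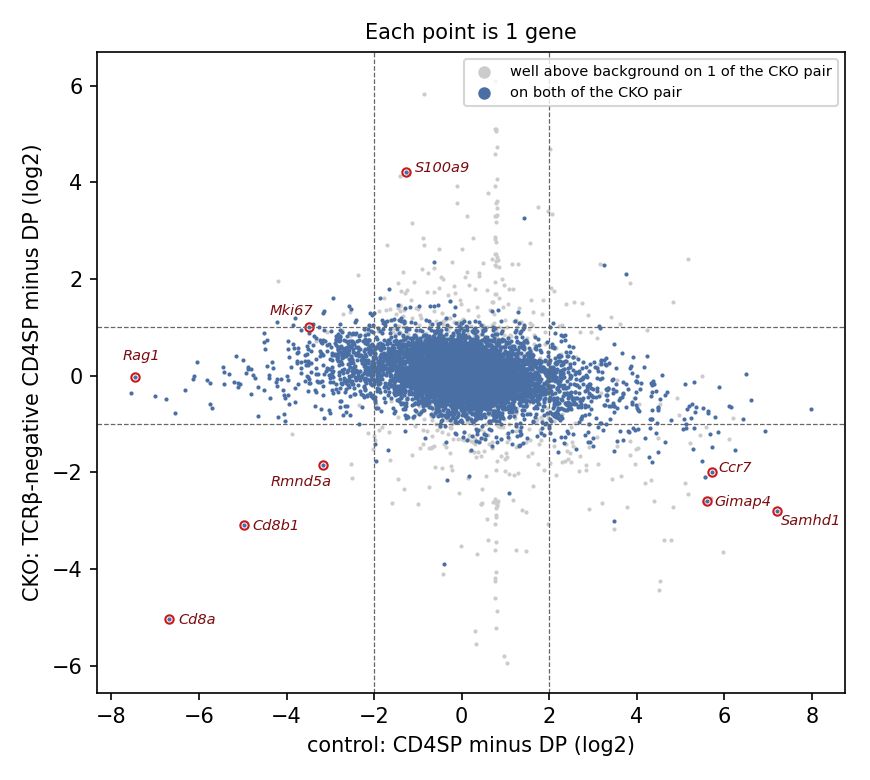
Difference of CD4SP minus DP in control mice (x axis, log2) against TCRβ-negative CD4SP minus DP in CKO mice (y axis, log2), 1 point per gene, with dashed lines at 4-fold on the x axis and 2-fold on the y axis. Most genes far from 0 on the x axis lie near 0 on the y axis. Cd8a, Cd8b1 and Rmnd5a lie at the lower left and Gimap4, Ccr7 and Samhd1 at the lower right; a grey column of points holds genes at the lowest signal of both control arrays.

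Markers of cells other than thymocytes also differed between the arrays. Of 5 compared granulocyte markers, 4 were past 2-fold higher (background 2.12%): S100a9 at 1.33 against -2.88 (4.21), S100a8, Camp (1.61) and Mpo (1.44). S100a8 was not well above background in DP CKO (at least 11.9-fold higher), and Elane, the fifth, differed by -0.32. S100a9 was at 2.71 in DP control and 1.44 in CD4SP control, so the DP CKO array was the lowest of the 6. The summed level of the 7 measured granulocyte markers was 2.97 in TCRβ-negative cells, 2.26 in DP CKO, 2.19 in CD4SP CKO and 3.05 to 3.93 in the 3 control arrays. On the DP CKO array most of this sum was Elane, at 2.09. The part of granulocytes in the results was not tested.

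Several erythroid, myeloid and dendritic markers were past 2-fold lower (background 2.6%). Of 5 compared erythroid markers, 4 were so, among them Hba-a1, Hbb-b2 (-1.44) and Slc4a1 (-1.29). Their summed level was 2.43 in TCRβ-negative cells, 3.82 in DP CKO and 2.44 to 3.50 in the other 4 arrays. Of 8 compared myeloid markers, 3 were lower: Mpeg1 (-1.38), C1qa (-1.22) and Lyz2. Lyz2 was not well above background in TCRβ-negative cells (at least 3.06-fold lower). The myeloid markers summed to 5.47 in TCRβ-negative and 5.67 in DP CKO cells, mostly through Itgam (4.88 and 4.87). The differences of the 3 Itgam probes ranged from -0.16 to 1.41. Of 7 compared dendritic markers, 2 were lower, Itgax and Flt3, neither well above background in TCRβ-negative cells (at least 2.67-fold and 2.79-fold lower). The others ranged from -0.67 to 0.44, 3 of them above 0. The dendritic markers summed to 8.64 in TCRβ-negative and 8.58 in DP CKO cells. Nearly all of this sum was Siglech, at 8.61 and 8.55, so it says little about the other members. The called markers were lower in the same pair of arrays as the lower mature and cytotoxic genes and H2-Ab1. The part of such cells in those differences was not tested.

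Markers of the other lineages that a gate without TCRβ could hold did not differ past 2-fold by the probe that stands for each gene, where 4.72% of all genes did. Few could be compared: the members numbered 3 for B cells, 2 for NK and NKT cells, 3 for gamma delta T cells, 2 for innate lymphoid cells, 2 for thymic epithelium and stroma and 3 for endothelium. Of the 8 listed gamma delta markers 5 were measured, and Trdc, Tcrg-C1 and Tcrg-V4 were not. Blk was well above background on the TCRβ-negative array alone of the 6, at -2.59 (0.48 within the pair). The summed level of the gamma delta markers was 1.07 in TCRβ-negative cells and 1.21 in DP CKO, mostly Sox13 (0.79 and 0.98). That of the NK and NKT markers was 0.59 and 0.58. The innate lymphoid markers summed to -0.70 and -0.27. A second probe of Krt5, an epithelial keratin, differed by 3.66, while the probe that stands for it gave -0.90.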

How the data were processed

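RNA of sorted thymocytes was measured on Agilent 1-colour (Cy3) arrays of design 028005, 1 array per population. The labels describe a biotin-based preparation of cRNA, but the headers are those of Cy3 scans, which are followed here. Each deposited scanner file gives, per the file headers, a processed signal (an intensity) for every spot, from which Feature Extraction 10.7.1.1 (protocol GE1_107_Sep09) had subtracted background, without scaling between arrays. The authors' series table holds this intensity as a ratio to the array's 75th percentile, and its log2 values had r = 0.999999 with the scanner values.

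Here 59305 spots besides 3671 control spots were read per array, with none saturated. Repeat spots were averaged by probe. Outlier flags removed 144 of 55681 probes, and log2 signals were set relative to each array's 75th percentile. Of the probes kept, 26715 could be named through RefSeq (20258 symbols) and 28822 could not. A gene was read from the probe with its highest average across the 9 arrays, and counted as well above background where any of its probes was. With 1 array per group no test was possible, and a gene was called past 2-fold. Where 1 of the 2 arrays was not well above background, "at least" folds are against the higher of the lowest signal well above background on that array and the probe's own signal.

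The members and the 30 gene lists were chosen with earlier results of these data known. The genes named were all co-receptors and Brd1 partners, up to 6 members of each other list with the largest difference, the 15 largest differences each way among brighter genes, the 10 largest control differences each way, and markers of other cell types past 2-fold; members outside this rule are named as examples after their values were seen. Alternatives were another percentile, quantile normalization and normexp (limma 3.58.1 in R 4.3.3, on the median spot signal, offset 50), other detection filters, the median over probes and the deposited table. The calculation was tested on simulated data.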

Additional observations from a re-analysis of the deposited data

How the results depend on the processing

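No paired analysis was possible because each population has 1 array and the labels give no replicate numbers that groups share. In every setting below that gave the count, DP CKO remained the array with the fewest genes past 2-fold from TCRβ-negative cells. With normexp background correction, which compresses dim signals, 19 genes were higher and 35 lower. Under normexp the genes that went up in control CD4SP gave 0 higher and 12 lower, those that went down 3 higher and 3 lower, and the array counts were 54 (DP CKO), 345 (DP control), 1337 (CD8SP control), 1592 (CD4SP CKO) and 2163 (CD4SP control). With no detection filter the counts were 505 and 936, those of the genes up in control CD4SP 34 and 169, and 1441 genes differed from DP CKO. With genes well above background on both arrays they were 82 and 112, then 3 and 53, and 9 and 3; with the filter on all 6 arrays the array counts were 138, 558, 1619, 1837 and 2264 in the same order. Quantile normalization gave 27 higher and 13 lower genes among those that went down in control CD4SP. With control genes chosen at 2-fold, 34 of the genes that went up were higher and 132 lower. Of those that went down, 65 were higher and 21 lower. Settings chosen after seeing the data gave 10 and 26 genes at or above the median brightness, and 890 and 797 at 1.5-fold.

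A set of 98 genes past 2-fold was followed through the settings. They were members of the gene lists, the largest differences among brighter genes and part of the control-chosen genes, and not all are named above. Of the 98, 95 were still past 2-fold with the other percentile, 96 with quantile normalization, 86 with the median over probes and 31 with normexp. Under normexp 57 were smaller by over 1.5-fold. With detection required on both arrays, 64 could be compared, all still past 2-fold. Those still past 2-fold under normexp included Cd8a (-4.36), Cd8b1 (-2.91), Rmnd5a (-1.68), Gimap4 (-2.01), Ccr7 (-1.85), Cd69 (-1.05) and Mki67 (1.08). The sign turned under normexp for Txnrd3 (-0.030), Zdhhc15 (-0.047), Pdgfa (-0.115) and H2-T3 (-0.034), and with the median over probes for Socs2 (0.081) and Pdgfa (-0.061). The median of the TCR signal genes ranged from -0.83 to -0.60 and that of the proliferation genes from 0.53 to 0.62 over the settings. Signal over background limits the calls: 82 of the 251 higher and 112 of the 308 lower genes were well above background on both arrays.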

Other observations

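Some of the larger differences lay outside the gene lists, and these genes were named after their values were seen. Past 4-fold and well above background on both arrays, 5 genes were higher in TCRβ-negative cells and 10 lower. The higher ones were S100a9, Dnm3 (3.26, a dynamin), Cabp1 (2.36, a calcium-binding protein), Rgs16 (2.29, a regulator of G protein signals) and Ms4a6b. Dnm3 was at 0.28 in TCRβ-negative cells and between -5.53 and -2.98 on the 5 other arrays of the slide, and Cabp1 at 0.16 against -3.14 to -2.03. Rgs16 was at -0.33 in TCRβ-negative cells, -2.62 in DP CKO and -2.47 in DP control, beside -0.41 in CD4SP CKO and 0.78 in CD4SP control.

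The lower ones besides Cd8a, Cd8b1, Ccl5, Samhd1, Gimap4 and Gimap3 were Slc23a3 (-3.90), Alg12 (-2.43), Wdfy2 (-2.17) and Ccl8 (-2.08). Slc23a3 was at 1.57 in DP CKO and -4.36 in DP control, and Alg12 at 0.26 and -2.57, so these 2 genes stood apart on the DP CKO array. Ccl8, a chemokine, was at -0.13 in DP CKO, -2.21 in TCRβ-negative cells and -4.73 in DP control.

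Among the probes without a gene name, 10338 could be compared, of which 514 were more than 2-fold higher and 397 lower. Over all 25715 compared probes, which include these, 877 were higher (3.41%) and 785 lower (3.05%). Among the brighter of these probes, the largest positive differences were 6.80 and 6.50, for a probe at 4.46 in TCRβ-negative cells and -2.34 in DP CKO and another at 3.38 and -3.12. Both probes were at 3.44 or more in CD4SP control, CD8SP control and CD4SP CKO, and at 0.86 and 0.21 in DP control. The next positive ones were 3 probes of 1 transcribed region at chr1:139822286-139822985 (build mm9), with differences of 1.16 to 1.38. Their levels were 4.74 to 5.45 in DP control and 1.55 to 2.24 in CD4SP CKO. On the lower side, a probe of the region chr5:110964854-110965222 (mm9) was at 2.21 in DP CKO and not well above background in TCRβ-negative cells. Among bright unnamed probes well above background on both arrays, the largest negative difference was -1.83, at chr6:47915489-47916089 (mm9), and the next -1.67. On 1 array alone of the 6, 481 probes were well above background for TCRβ-negative cells and 296 for DP CKO cells. Only 66 and 37 of these lay 4-fold or more above the lowest signal well above background on their array.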
